A study of Mus musculus with 24 samples.

Results

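Mice that lack Kat2a in excitatory neurons of the forebrain were exposed to an unfamiliar environment, and gene expression was compared with that of unexposed mice in hippocampal CA1, a field of pyramidal neurons. Messenger RNA of dissected CA1 was sequenced from 6 naive conditional knockout (cKO) libraries and from 7 cKO libraries taken with 15 min of novelty exposure, which makes 13 of the 24 libraries of the series. The comparison is novelty minus naive within cKO, over all genes that passed a filter on low counts. Both cKO groups are C57BL/6J mice aged 3 to 5 months with the genotype Kat2afl/fl and CamKII_alpha-cre+, so the deletion is shared by the naive and the exposed mice. The other 11 libraries come from control mice of the same strain and age, Kat2afl/fl without Cre, 6 naive and 5 novelty-exposed. They are used here for the check of Kat2a, for the common scaling of levels and to ask whether the response differed by genotype. CamKII alpha sequences drive the Cre transgene, which deletes floxed exons in excitatory neurons, so glia, vessels and interneurons of the same tissue keep the gene. The labels number the libraries within a group but do not say that each is a separate mouse, and p-values measure the spread between these libraries. The time between the exposure and the dissection is not given in the sources used here.

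A new environment makes hippocampal neurons fire, and calcium entry then activates kinases that phosphorylate transcription factors already bound to DNA, among them CREB and serum response factor. The first genes to respond are immediate early genes, which need no new protein. Many encode transcription factors themselves (the Fos, Jun, Egr and Nr4a families), others encode proteins that act at synapses (Arc, Homer1, Bdnf), and others again encode phosphatases and inhibitors that shut the signal down. Kat2a encodes a histone acetyltransferase, the catalytic subunit of the SAGA and ATAC coactivator complexes.

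Kat2a itself was checked first. It was measured at 32.5, 36.3 and 39.3 CPM (reads of a gene after scaling for library size, given here and below for the lowest, median and highest library) in naive cKO and at 31.2, 35.0 and 38.3 CPM in novelty-exposed cKO. The mean of 35.1 ± 2.26 CPM (SD, n = 7) after novelty was 97.1% of the naive mean of 36.2 ± 2.42 CPM (SD, n = 6), and the groups overlapped (exact two-sided permutation test over 1716 splits, p = 0.434). All control libraries were above this range, at 59.3 to 70.3 CPM in naive and 56.0 to 64.2 CPM in novelty-exposed controls. The deposited counts are per gene, so reads of a transcript that lacks the deleted exons are counted too. In RNA of whole tissue, fewer cells of a type and less RNA per cell cannot be told apart, here and in every result below.

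The dissection label was read against marker genes. All 10 CA1 pyramidal markers were measured, with a summed level of 1431 to 1675 CPM in naive and 1372 to 1605 CPM in exposed cKO libraries. Wfs1, a marker of dorsal CA1 pyramidal neurons, had a median of 189 CPM in naive and 179 CPM in exposed libraries. The 10 dentate granule cell markers summed to 225 to 437 CPM in naive and 182 to 354 CPM in exposed libraries, and were thus above 0 in every library. Assigned reads ranged from 19.6 to 24.5 M (mega) reads in naive and from 13.02 to 21.2 M reads in exposed cKO libraries. On the second principal component of the 13 cKO libraries, which held 13.6% of the variance, all naive libraries lay below 0 and all exposed ones above it, while the first, with 22.5%, did not separate the groups.

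After novelty, far more genes were higher than lower. Of 16339 genes tested, 393 (2.41%) passed at an adjusted p below 0.05, the threshold used throughout, and these are the genes said below to have risen or fallen. Of them, 314 (1.92% of genes tested) were higher after novelty and 79 (0.484%) were lower, so 79.9% of the changes were increases. With upper-quartile in place of TMM scaling, 240 genes were higher and 118 lower, and the share of increases was 67.0%. Most changes were small: the median log2 fold change was 0.30 among the increases and -0.31 among the decreases, against -0.01 over all genes. Increases above 1.5-fold were seen for 58 genes and decreases of that size for 6. There were 25 increases above 2-fold, 5 of them above 4-fold, and no decrease reached 2-fold.

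The levels of the 2 groups did not overlap at all for 211 of the 314 genes that rose and for 43 of the 79 that fell. Over all tested genes, 242 (1.48%) had every exposed library above every naive one and 81 (0.496%) had every exposed library below every naive one. When each library was left out in turn, 190 of the increases and 24 of the decreases passed in all 13 fits. Without naive library 2, 238 genes passed, 207 higher and 31 lower. The count of decreases also fell by more than 1.5 times without naive library 3 (49), 4 (41) or 6 (40) and without exposed library 1 (46) or 6 (46).

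Transcription factor genes of the Egr and AP-1 families led the increases. Egr2, a zinc finger transcription factor, was at 0.345, 0.512 and 1.01 CPM in naive cKO and at 8.23, 13.1 and 20.7 CPM after novelty. The groups were far apart, and the rise was 23.8-fold (log2 4.57 ± 0.26, SE, adjusted p = 2.41e-07), the largest among the named genes. Fos, a subunit of the AP-1 dimer, went from 2.07, 2.97 and 6.30 CPM to 24.8, 31.2 and 55.0 CPM, a 10.3-fold rise (log2 3.36 ± 0.29, adjusted p = 5.07e-05). Its lowest exposed library was above its highest naive one. Fosb, another AP-1 subunit, was nearly uniform in naive libraries at 4.96, 5.57 and 5.85 CPM and reached 28.0, 37.1 and 49.9 CPM after novelty, a 6.89-fold rise (log2 2.78 ± 0.13, adjusted p = 1.44e-08).

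Promoters of some of the genes that rose are shown because CREB and serum response factor bind known short motifs. Each window runs from 250 bases before to 50 bases after a RefSeq transcript start (GRCm38.p6), on the strand of the gene, and was chosen after the values were seen. Capitals mark 2 motifs, searched on both strands: the CRE core site TGACG, bound by CREB (CGTCA on the other strand), and the CArG box, bound by serum response factor. The 12 largest increases, here and below, are those among genes with a mean count of at least 50, the same sign in all 13 fits without 1 library and a symbol that is not a clone or predicted-gene name, which leaves out 1700016P03Rik, described below. Of these 12, Egr1, Arc and Sik1 have no window here, and 5 windows are printed. Dusp5 is not among the 12 and is shown for its CArG boxes, and Errfi1, also outside them, for its full CRE site. For Egr2 the window is 1 of 5, at chr10:67537619-67537918 (plus strand), for Fos it is chr12:85473640-85473939 (plus), for Egr4 chr6:85513540-85513839 (minus), for Nr4a1 chr15:101266596-101266895 (plus), for Homer1 chr13:93303507-93303806 (plus, 1 of 2 windows), for Dusp5 chr19:53528895-53529194 (plus), and for Errfi1 chr4:150854820-150855119 (plus, 1 of 2 windows).
Egr2: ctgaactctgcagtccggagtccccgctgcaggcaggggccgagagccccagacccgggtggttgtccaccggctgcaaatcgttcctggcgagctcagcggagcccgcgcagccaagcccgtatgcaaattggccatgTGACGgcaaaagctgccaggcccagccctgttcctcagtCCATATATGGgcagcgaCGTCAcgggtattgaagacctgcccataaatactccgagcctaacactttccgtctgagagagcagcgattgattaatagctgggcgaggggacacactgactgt
Fos: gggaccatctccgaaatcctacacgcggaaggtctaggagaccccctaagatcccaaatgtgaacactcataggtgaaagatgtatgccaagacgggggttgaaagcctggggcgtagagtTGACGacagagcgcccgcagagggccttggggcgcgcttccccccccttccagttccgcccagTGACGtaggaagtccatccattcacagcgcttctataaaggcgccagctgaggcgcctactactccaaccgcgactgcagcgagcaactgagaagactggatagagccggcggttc
Egr4: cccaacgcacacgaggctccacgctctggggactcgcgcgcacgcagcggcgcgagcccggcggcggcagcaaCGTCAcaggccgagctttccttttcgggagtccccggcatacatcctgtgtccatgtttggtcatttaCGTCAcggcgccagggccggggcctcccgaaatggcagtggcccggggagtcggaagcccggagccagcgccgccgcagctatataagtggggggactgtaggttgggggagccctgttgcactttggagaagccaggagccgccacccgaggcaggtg
Nr4a1: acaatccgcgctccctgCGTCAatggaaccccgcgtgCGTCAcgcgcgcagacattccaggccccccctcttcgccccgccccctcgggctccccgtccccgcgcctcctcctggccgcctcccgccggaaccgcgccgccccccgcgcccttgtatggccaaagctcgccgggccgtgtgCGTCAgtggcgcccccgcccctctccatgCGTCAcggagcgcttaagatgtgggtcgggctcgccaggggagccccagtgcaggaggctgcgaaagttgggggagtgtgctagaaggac
Homer1: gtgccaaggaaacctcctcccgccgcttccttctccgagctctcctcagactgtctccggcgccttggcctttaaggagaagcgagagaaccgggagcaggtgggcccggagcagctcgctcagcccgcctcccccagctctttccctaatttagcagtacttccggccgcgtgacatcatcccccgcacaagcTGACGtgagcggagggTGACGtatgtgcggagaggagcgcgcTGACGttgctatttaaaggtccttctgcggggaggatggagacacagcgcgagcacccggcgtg
Dusp5: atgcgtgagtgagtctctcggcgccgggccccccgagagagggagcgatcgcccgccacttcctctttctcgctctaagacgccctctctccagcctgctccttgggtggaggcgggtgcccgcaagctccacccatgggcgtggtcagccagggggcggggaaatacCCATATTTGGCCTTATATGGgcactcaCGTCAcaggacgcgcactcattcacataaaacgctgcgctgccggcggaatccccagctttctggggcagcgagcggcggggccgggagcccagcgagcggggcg
Errfi1: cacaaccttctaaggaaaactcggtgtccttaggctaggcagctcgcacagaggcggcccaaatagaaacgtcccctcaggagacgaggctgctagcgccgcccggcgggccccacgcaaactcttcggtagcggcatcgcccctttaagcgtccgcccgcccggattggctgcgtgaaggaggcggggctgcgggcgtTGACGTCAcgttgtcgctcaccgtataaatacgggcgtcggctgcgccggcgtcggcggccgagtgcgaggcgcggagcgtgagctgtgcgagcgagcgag

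The Egr2 window held 1 CArG box between 2 CRE core sites, and the Dusp5 window held 2 CArG boxes side by side and 1 CRE core site. The core site occurred 2 times in the Fos and Egr4 windows, 4 times in that of Nr4a1 and 3 times in the Homer1 window printed. None of these windows held a CArG box. The Homer1 and Errfi1 windows that are not printed held neither motif. Of the Egr2 windows not printed, that starting at chr10:67535249 held neither, and that at chr10:67537316 held a CArG box but no core site. The remaining Egr2 windows held the same motifs as the one printed. The windows of the other genes among the 12 held the core site 1 time for Fosb and Junb, 4 times for Nr4a3 and 1 time in 1 of the 2 windows of Tnfrsf25, with no CArG box. Of the 9 genes among the 12 with a window, Egr2 was thus the only one with a CArG box. Among all 32851 windows of the table, 1.63% held a CArG box, 20.81% held TGACG and 1.79% held the full site TGACGTCA, which contains the core site on both strands. The full site was in the Errfi1 window printed and in none of the other windows printed. Among genes with a window here that rose more than 1.5-fold, the full site was also in a window of Maff, Dio2, Arl5b, Arl4d and Zdbf2. A window could be matched to 78.7% of the tested protein-coding genes, which is under the 80% needed, so a comparison of motif shares between genes that rose and all genes is void. A match describes letters and not binding, and a window without a match says nothing about other regulatory sequence of the gene.

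Across the whole families, 4 of 10 tested AP-1 genes rose (40.0%, beside 1.92% of all genes tested) and none fell. They were Fos, Fosb, Fosl2 and Junb, and the median log2 fold change over the 10 was 0.43. Fosl2 went from 35.0, 44.4 and 49.7 CPM to 75.3, 103 and 122 CPM (log2 1.24 ± 0.12, adjusted p = 6.12e-05). Junb had naive libraries up to 18.1 CPM and an exposed library at 15.3 CPM, so its groups overlapped. Its rise from a median of 12.1 to 26.0 CPM (log2 1.54 ± 0.37) had an adjusted p of 0.0499 and passed in only 1 of the 13 fits that left out a library, that without exposed library 3. The adjusted p reached 0.119 without naive library 2. Jun and Jund, which pair with Fos proteins, had log2 fold changes of 0.04 and 0.05 and did not pass.

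Of the 9 Egr, Nab and Nr4a genes, 8 rose (88.89%, beside 1.92% of all genes tested), the exception being the corepressor gene Nab1 (log2 0.08). Egr1 went from 61.7, 79.1 and 91.5 CPM to 220, 263 and 345 CPM without overlap (log2 1.83 ± 0.13, adjusted p = 4.61e-06). Egr4 went from 2.18, 2.81 and 5.14 CPM to 8.67, 12.02 and 22.4 CPM (log2 2.11 ± 0.28, adjusted p = 0.000915), and Egr3 from a median of 18.6 to 38.5 CPM (log2 1.08 ± 0.17, adjusted p = 0.004). Nab2, which encodes a corepressor that binds Egr proteins, rose less (log2 0.49 ± 0.08, adjusted p = 0.00239).

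The Nr4a genes encode orphan nuclear receptors that are themselves rapid-response genes. Nr4a1 was at 38.4, 43.8 and 52.7 CPM in naive libraries and at 68.7, 110 and 159 CPM in exposed ones (log2 1.35 ± 0.18, adjusted p = 0.00143). Nr4a3 went from 46.9, 64.3 and 90.2 CPM to 123, 166 and 187 CPM (log2 1.24 ± 0.15, adjusted p = 0.000423). In both, every exposed library was above every naive one. For Nr4a2 the groups just met, with a highest naive library of 105 CPM and a lowest exposed one of 103 CPM (log2 0.97 ± 0.21, adjusted p = 0.0314). It passed in 4 of the 13 fits without 1 library, and its adjusted p reached 0.0778 without naive library 6.

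**Figure D1:**
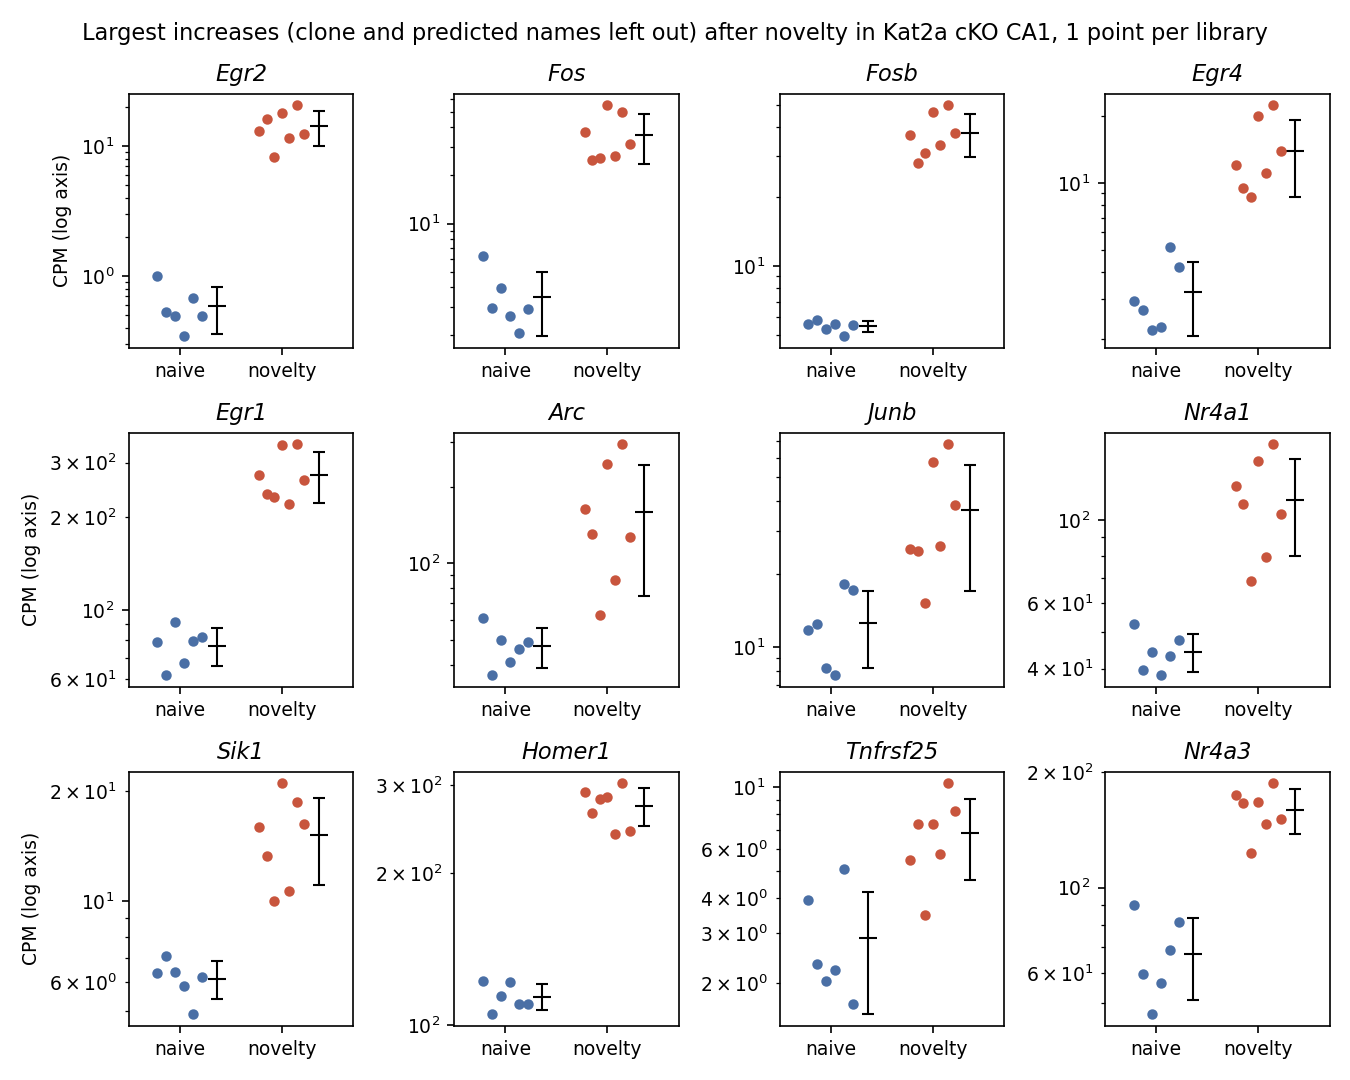
Level in CPM (vertical log axis) of the 12 largest increases, clone and predicted-gene names left out, in each of the 6 naive (blue) and 7 novelty-exposed (red) cKO libraries. Black marks give the mean and SD of a group. The groups are apart in every panel except Junb and Tnfrsf25, and Egr2 shows the largest step, from a naive median of 0.512 CPM to 13.1 CPM.

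Some genes that are widely used as activity markers did not pass. Npas4, a neuronal activity-dependent transcription factor, was at 3.08, 3.76 and 10.8 CPM in naive and at 3.02, 6.10 and 18.8 CPM in exposed libraries, and the ranges largely overlapped (log2 0.68 ± 0.46, adjusted p = 0.569). Ier2 had medians of 3.07 and 3.16 CPM (log2 0.35 ± 0.22, adjusted p = 0.537). Dusp1, a phosphatase of MAP kinases, had medians of 13.8 and 21.3 CPM (log2 0.66 ± 0.19, adjusted p = 0.0991). For these genes no change was shown at this spread between libraries, which is not the same as no change.

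The list of 30 other rapid-response regulators had 8 increases and 1 decrease (30.0% passed, beside 2.41% of all genes tested). Maff, a small bZIP protein gene, had the largest, from 0.546, 0.653 and 0.766 CPM to 0.976, 1.35 and 1.89 CPM with no overlap (log2 1.18 ± 0.20, adjusted p = 0.00293). Gadd45b, linked to DNA demethylation and stress signalling, rose from a median of 6.37 to 10.3 CPM (log2 0.93, adjusted p = 0.0134). Tiparp, which encodes a mono-ADP-ribosyltransferase, rose by 0.74 and Arid5a by 0.66 on the log2 scale, both without overlap. The gene of serum response factor, Srf, rose by 0.28 (adjusted p = 0.0289), with groups that overlapped and 7 of 13 fits without 1 library passed. Klf10, Nfil3 and Sertad1 also rose and passed in 3, 3 and 9 of those fits. The decrease was Zfp36l2, which encodes a protein that promotes decay of AU-rich messenger RNA (log2 -0.24, adjusted p = 0.0241, passed in 8 of 13 fits).

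A noncoding transcript stood among the 5 genes that rose more than 4-fold, and it is named because of the microRNAs in it. 1700016P03Rik was at 0.736, 1.21 and 1.77 CPM in naive and at 3.99, 6.84 and 11.2 CPM in exposed libraries. The ranges did not meet, and the 5.55-fold rise (log2 2.47 ± 0.27, adjusted p = 0.000189) passed in all 13 fits without 1 library. Its annotated span on chromosome 11 contains the hairpins of Mir212 (chr11:75173388-75173478) and Mir132 (chr11:75173682-75173747), 2 microRNAs that share a seed. The mature sequences, from RefSeq, are given with the seed (bases 2 to 8) in capitals:
miR-132-3p: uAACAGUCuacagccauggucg
miR-212-3p: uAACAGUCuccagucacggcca
The seed AACAGUC is the same in both. Polyadenylated RNA was sequenced, so the levels of the mature microRNAs were not measured.

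Some genes whose products act at synapses or are secreted rose as well. Of 38 tested, 10 were higher (26.32%, beside 1.92% of all genes tested) and none lower. The median log2 fold change over the list was 0.21. Homer1, a scaffold of metabotropic glutamate receptors, was tight in both groups, at 105, 112 and 122 CPM in naive and 239, 282 and 303 CPM in exposed libraries. It rose 2.39-fold (log2 1.26 ± 0.06), with the smallest adjusted p of the named genes (3.41e-09). The counts do not separate its long from its short, activity-induced isoform. Arc, which regulates the removal of AMPA receptors, varied far more: 36.3, 47.6 and 60.9 CPM in naive and 62.4, 131 and 296 CPM in exposed libraries. Every exposed library was above every naive one, but the adjusted p of 0.021 (log2 1.75 ± 0.34) rose to as much as 0.062 in the 4 of 13 fits that did not pass, each without 1 naive library (2, 3, 4 or 6).

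Bdnf, the brain-derived neurotrophic factor gene, went from 29.8, 33.9 and 46.6 CPM to 41.4, 46.8 and 57.4 CPM (log2 0.45 ± 0.10, adjusted p = 0.0312). Its ranges overlapped, 6 of 13 fits without 1 library passed, and the adjusted p reached 0.0843 without naive library 2. Tnfrsf25, a death receptor gene and no member of the list, was at 1.68, 2.27 and 5.09 CPM in naive and 3.48, 7.37 and 10.3 CPM in exposed libraries (log2 1.25 ± 0.28, adjusted p = 0.0312). Its groups overlapped too, and it passed in 5 of 13 such fits, with an adjusted p of up to 0.0874 without naive library 2. Fam46a, which encodes a noncanonical poly(A) polymerase, rose 2.19-fold (log2 1.13, adjusted p = 0.000123). The constitutively active receptor gene Gpr3 rose from a median of 3.20 to 6.65 CPM (log2 0.98, adjusted p = 0.000895), and Coq10b, a coenzyme Q binding protein gene, from 18.4 to 27.6 CPM (log2 0.68, adjusted p = 0.000307). Plk3, Grasp, Frmd6 and Ifrd1 were the others that rose, and of these Grasp passed in 3 of the 13 fits without 1 library and the other three in all.

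Negative regulators of kinase signalling formed a further group, in which 8 of 29 genes rose (27.59%, beside 1.92% of all genes tested) and none fell. Sik1, a kinase that restrains CREB coactivators, went from 4.91, 6.30 and 7.08 CPM to 10.001, 15.995 and 21.1 CPM with no overlap (log2 1.31 ± 0.17, adjusted p = 0.000423). Its paralog Sik2 rose by 0.48 on the log2 scale. Dusp5 and Dusp6 encode phosphatases of ERK. Dusp5, whose promoter window with 2 CArG boxes is printed above, went from 10.4, 11.9 and 15.0 CPM to 17.2, 25.9 and 32.0 CPM (log2 1.10 ± 0.13, adjusted p = 0.000298), and Dusp6 from a median of 42.9 to 80.9 CPM (log2 0.81).

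Among inhibitors upstream of ERK, Spry4, Spred1 and Spred2 rose by 0.58, 0.22 and 0.19. Errfi1, an inhibitor of the EGF receptor, rose from a median of 34.5 to 62.3 CPM (log2 0.79, adjusted p = 0.00055). Of the 18 CREB family and coactivator genes only Crem passed (5.56%, beside 2.41% of all genes tested). Crem, which encodes activator and repressor isoforms, went from 15.6, 17.7 and 20.8 CPM to 21.3, 22.5 and 25.7 CPM (log2 0.36, adjusted p = 0.00438). Creb1 itself had a log2 fold change of 0.11 (adjusted p = 0.214) and the coactivator gene Ep300 of 0.13 (adjusted p = 0.0856).

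Glucocorticoid-induced genes included 7 increases among 23 tested (30.43%, beside 1.92% of all genes tested), with a median log2 fold change of 0.25. Tsc22d3, a leucine zipper protein gene known as a glucocorticoid target, was at 44.2, 55.6 and 59.2 CPM in naive and 69.7, 87.9 and 110 CPM in exposed libraries (log2 0.72 ± 0.11, adjusted p = 0.00166), with no overlap. Sgk1, a kinase gene, rose from a median of 42.6 to 76.8 CPM (log2 0.90, adjusted p = 0.0154) with overlapping groups. Fkbp5, another classical target, had a log2 fold change of 0.18 and did not pass (adjusted p = 0.542). The other increases were Per1, Cdkn1a, Errfi1, Plin4 and Bcl6, of which Per1 and Errfi1 are also known as activity-induced genes. Plin4 and Bcl6 passed in 3 and 1 of the 13 fits without 1 library.

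Of 21 clock genes, 4 rose (19.05%, beside 1.92% of all genes tested). Per1 went from 52.9, 61.0 and 69.3 CPM to 80.6, 105 and 138 CPM (log2 0.88 ± 0.12, adjusted p = 0.00112), and Per2 from a median of 33.9 to 54.1 CPM (log2 0.67, adjusted p = 0.00343). Bhlhe40, a repressor of clock-controlled genes, rose from 131 to 181 CPM at the median (log2 0.46, adjusted p = 0.000187). Nfil3 rose by 0.79 (adjusted p = 0.0416) but passed in 3 of 13 fits without 1 library, with an adjusted p of 0.105 without naive library 2. The labels give no time of day.

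Of 24 cytosolic chaperone genes, 6 rose, none fell and 18 did not pass, and 23 had a log2 fold change above 0. Dnajb1, an Hsp40 cochaperone gene, went from 47.0, 49.9 and 51.1 CPM to 64.6, 75.6 and 84.9 CPM (log2 0.61 ± 0.05, adjusted p = 5.43e-06), with a clear gap between the groups. Dnajb5 rose from a median of 131 to 195 CPM (log2 0.56) and the Hsp70 cochaperone gene Bag3 from 6.88 to 10.5 CPM (log2 0.66). Chordc1, a cochaperone of Hsp90, rose by 0.29, and Hsph1 and Dnajb4 by 0.22 and 0.19, these last passing in 9 and 10 of 13 fits without 1 library. Hspa1a and Hspa1b, 2 near-identical genes whose reads are not counted where they have no unique position, had log2 fold changes of 0.27 and 0.22 and did not pass.

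In the endoplasmic reticulum, 2 of 28 folding and stress genes rose (7.14%, beside 1.92% of all genes tested). Hspa5, the main luminal Hsp70, went from 189, 205 and 224 CPM to 253, 271 and 308 CPM (log2 0.41 ± 0.05, adjusted p = 0.000161). Xbp1, a transcription factor of the unfolded protein response, went from 58.3, 61.3 and 64.6 CPM to 74.9, 76.1 and 80.01 CPM (log2 0.34 ± 0.03, adjusted p = 3.32e-05). Neither showed overlap between groups.

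**Figure D2:**
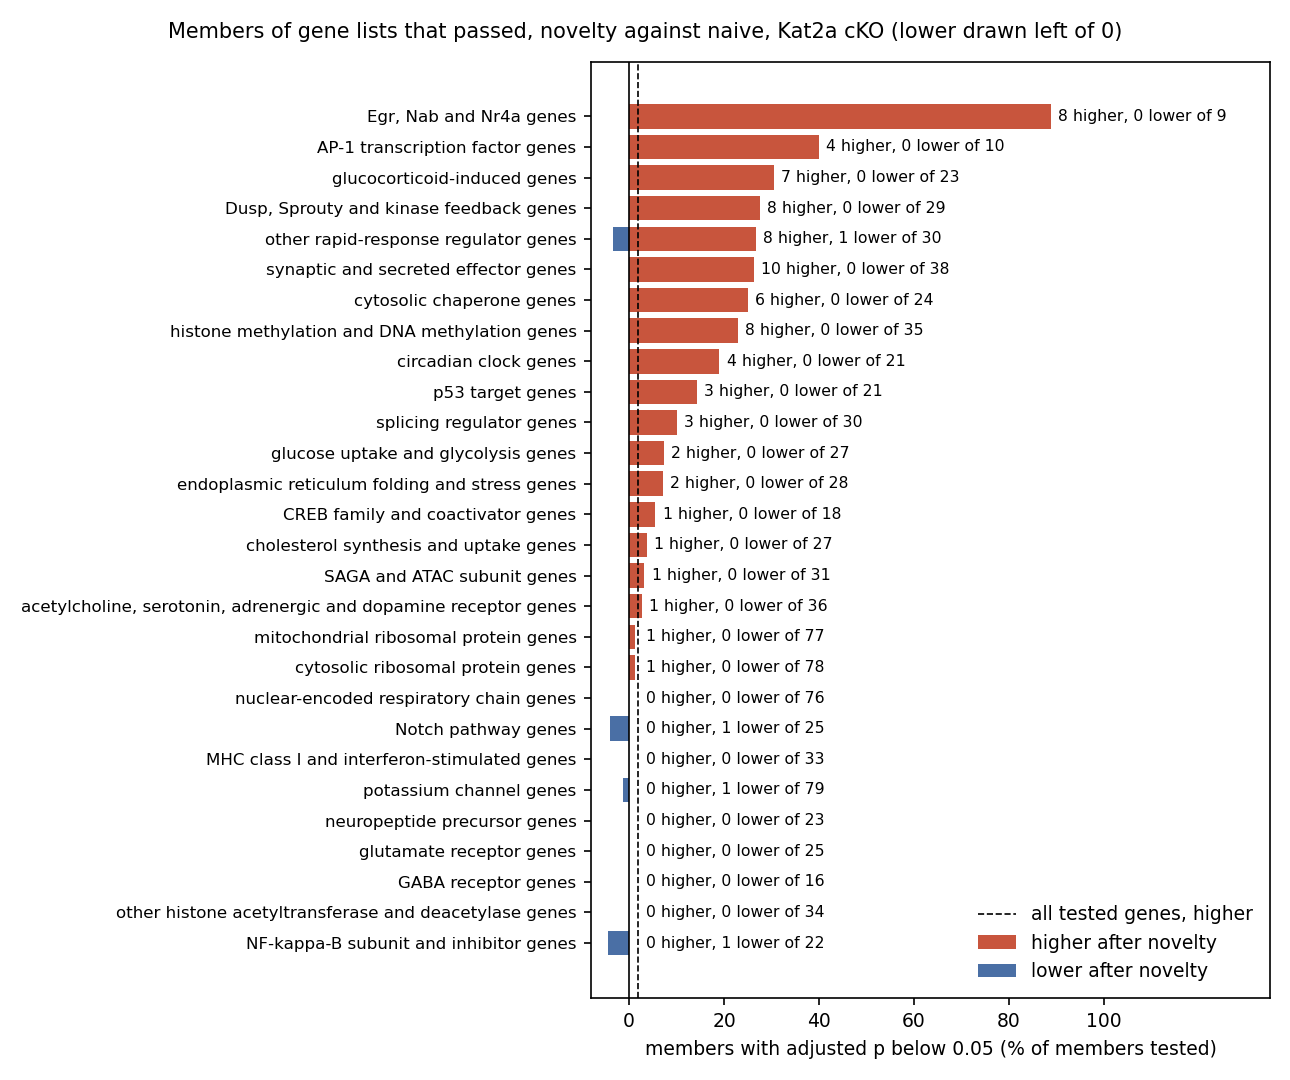
Share of the tested members of each gene list that were higher (red) or lower (blue, left of 0) after novelty in cKO CA1, with the counts written beside each bar. The dashed line is the share of all tested genes that were higher, 1.92%, and the Egr, Nab and Nr4a genes stand highest with 8 of 9.

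Smaller numbers rose in metabolic lists. Cyp51, a demethylase of cholesterol synthesis, went from 61.9, 66.3 and 75.3 CPM to 82.3, 89.3 and 97.5 CPM (log2 0.41 ± 0.06, adjusted p = 0.000423), with no overlap between the groups. It was 1 of 27 cholesterol genes in its list (3.7%, beside 1.92% of all genes tested that rose), and no other of them passed. Both main brain glucose transporters rose, Slc2a3, the neuronal one, by 0.24 (adjusted p = 0.00135) and Slc2a1, that of vessels and glia, by 0.34 (adjusted p = 0.0113). They were 2 of 27 genes of glucose uptake and glycolysis (7.41%, beside 1.92% of all genes tested that rose). The median log2 fold change over these 27 genes was 0.0. The p53 targets that rose, 3 of 21 (14.29%, beside 1.92% of all genes tested), were Cdkn1a, Mdm2 and Plk3. Mdm2, which degrades p53, went from a median of 42.6 to 52.1 CPM (log2 0.25, adjusted p = 0.00304).

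Genes of chromatin regulators were examined with the function of Kat2a in view. Of 31 SAGA and ATAC subunit genes, 1 rose (3.23%, beside 1.92% of all genes tested that rose). Atxn7, a subunit of the SAGA deubiquitinase module, went from 31.8, 35.97 and 38.3 CPM to 43.4, 48.1 and 49.0 CPM with no overlap (log2 0.40 ± 0.05, adjusted p = 0.0002). Taf12 and Yeats2 followed with log2 fold changes of 0.21 and 0.20 and did not pass (adjusted p = 0.0536 and 0.065). None of the 34 other histone acetyltransferase and deacetylase genes passed, and their values lay between -0.11 and 0.15. Kat2b, the closest paralog of Kat2a, had medians of 20.8 and 22.2 CPM (log2 0.06, adjusted p = 0.764).

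In the list of histone and DNA methylation genes, 8 of 35 rose (22.86%, beside 1.92% of all genes tested) and none fell. They were the demethylase genes Kdm2a, Kdm3a, Kdm5b, Kdm5c, Kdm6b and Jhdm1d, the methyltransferase gene Mll1, and Gadd45b, which the list holds for DNA demethylation. Jhdm1d went from 68.3, 74.5 and 90.6 CPM to 99.8, 115 and 132 CPM (log2 0.61 ± 0.08, adjusted p = 0.000423). Kdm3a, an H3K9 demethylase gene, went from 44.1, 47.0 and 48.7 CPM to 53.8, 59.2 and 65.3 CPM (log2 0.34 ± 0.04, adjusted p = 0.000419). The groups were apart for both, and Mll1 and Kdm2a, also without overlap, rose by 0.24 and 0.22. Kdm5b, Kdm5c and Kdm6b, with increases of 0.19, 0.16 and 0.42, passed in 7, 12 and 3 of the 13 fits without 1 library.

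Splicing regulators had 3 increases among 30: Srsf7 (log2 0.29, adjusted p = 0.00055), Tra2a (0.34, adjusted p = 0.00648) and Srsf10 (0.28, adjusted p = 0.01), each with no overlap between groups. Genes of the ribosome and the respiratory chain are given beside the 1.92% of all genes tested that rose. Of 78 genes named as cytosolic ribosomal protein genes only the entry Rpl24 rose (1.28%, log2 0.28, adjusted p = 0.000189). Its name comes from the authors' deposited tables, but its gene ID spans 35.03 kb with 7.44 kb of exons. Rpl4 spans 5.29 kb with 2.01 kb of exons. Whether the entry is the ribosomal protein gene is thus uncertain. Of 77 mitochondrial ones only Mrps6 rose (1.3%, log2 0.27, adjusted p = 0.0203), and none of 76 nuclear-encoded respiratory chain genes passed. The shares of these lists that rose are near that of all genes, but few values were above 0. Such values were seen for 15 of the 78 genes, 17 of the 77 and 3 of the 76. The median log2 fold changes were -0.063, -0.051 and -0.064, against -0.01 over all genes. Mrps6 overlaps Slc5a3, an inositol transporter gene that rose by 0.45, on the same strand, so reads of the overlap may not be told apart.

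None of the 25 glutamate receptor and 16 GABA receptor genes passed. Their log2 fold changes ran from -0.08 to 0.11 and from -0.25 to 0.08. Among 36 receptor genes for acetylcholine, serotonin, noradrenaline and dopamine, 1 rose (2.78%, beside 1.92% of all genes tested). Chrm4, a muscarinic receptor gene, went from 20.3, 25.9 and 29.5 CPM to 31.4, 40.1 and 44.5 CPM (log2 0.57 ± 0.10, adjusted p = 0.00704). Of 79 potassium channel genes, 1 fell (1.27%, beside 0.484% of all genes tested). Kcna4, which encodes an A-type channel, went from 40.3, 43.5 and 46.7 CPM to 29.2, 33.8 and 36.2 CPM (log2 -0.39 ± 0.05, adjusted p = 0.000357). Chrm4 and Kcna4 both had separate groups. No gene of 23 neuropeptide precursors passed, and none of 33 MHC class I and interferon-stimulated genes, of which 4 had a log2 fold change above 0.

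The median decrease was of the same size as the median increase, but the largest decreases were smaller than the largest increases. Plekho2, a pleckstrin homology domain gene, had the smallest adjusted p of the 12 largest decreases, at 14.0, 14.5 and 15.6 CPM in naive and 8.79, 9.72 and 10.7 CPM in exposed libraries (log2 -0.58 ± 0.06, adjusted p = 4.23e-05). Col22a1, a collagen gene, had the largest decrease among the named genes, from 3.44, 4.19 and 5.21 CPM to 2.09, 2.78 and 3.28 CPM (log2 -0.66 ± 0.14, adjusted p = 0.0157). Both were lower in every exposed library than in any naive one.

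Other genes that fell are given singly. Gas1, a coreceptor of Hedgehog, went from 5.56, 6.34 and 6.79 CPM to 4.27, 4.44 and 4.87 CPM (log2 -0.49, adjusted p = 0.00112). Wnt9a, a secreted Wnt ligand, went from a median of 12.2 to 8.603 CPM (log2 -0.47, adjusted p = 0.00166). Of 25 Notch pathway genes, 1 passed (4.0%, beside 2.41% of all genes tested). It was Notch1, a receptor gene, which went from 27.4, 29.4 and 31.2 CPM to 20.4, 22.2 and 24.2 CPM (log2 -0.38, adjusted p = 0.000379). These 3 genes had no overlap between the groups. Of 22 NF-kappa-B genes, 1 passed (4.55%, beside 2.41% of all genes tested). It was Tab1, an adaptor of the kinase TAK1, which fell by 0.36 (adjusted p = 0.00112).

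Fbxo32, a ubiquitin ligase gene known from muscle atrophy, had medians of 18.4 and 14.6 CPM (log2 -0.42, adjusted p = 0.0154), and the kinase gene Pskh1 11.8 and 8.93 CPM (log2 -0.43, adjusted p = 0.000902). The other large decreases did not pass in every fit without 1 library. Pkdrej (log2 -0.63) passed in 7 of 13 fits without 1 library and Adat2 (-0.41), a tRNA deaminase gene, in 5, with adjusted p-values of 0.0725 and 0.0791 without naive library 2. Mamstr (-0.58), a coactivator gene of MEF2, passed in 9, with 0.0618 without naive library 6. Ehhadh (-0.57), an enzyme gene of peroxisomal fatty acid oxidation, passed in 5 and the phosphatase gene Ptpn6 (-0.41) in 2, with 0.0683 and 0.0916 without naive library 3.

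P2ry13, a purinergic receptor gene of microglia, fell from 18.4, 20.1 and 21.02 CPM to 12.6, 14.4 and 15.6 CPM (log2 -0.47 ± 0.06, adjusted p = 0.000298), with no overlap. It was the only one of 12 microglial markers to pass (8.33%, beside 2.41% of all genes tested), and 2 of the 12 had a log2 fold change above 0. Their summed level was 497 to 600 CPM in naive and 485 to 551 CPM in exposed libraries, and P2ry12 and Cx3cr1, 2 further receptor genes of microglia, had log2 fold changes of -0.19 (adjusted p = 0.0697) and -0.14 (adjusted p = 0.169). The part of cell number in the fall of P2ry13 was not tested.

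**Figure D3:**
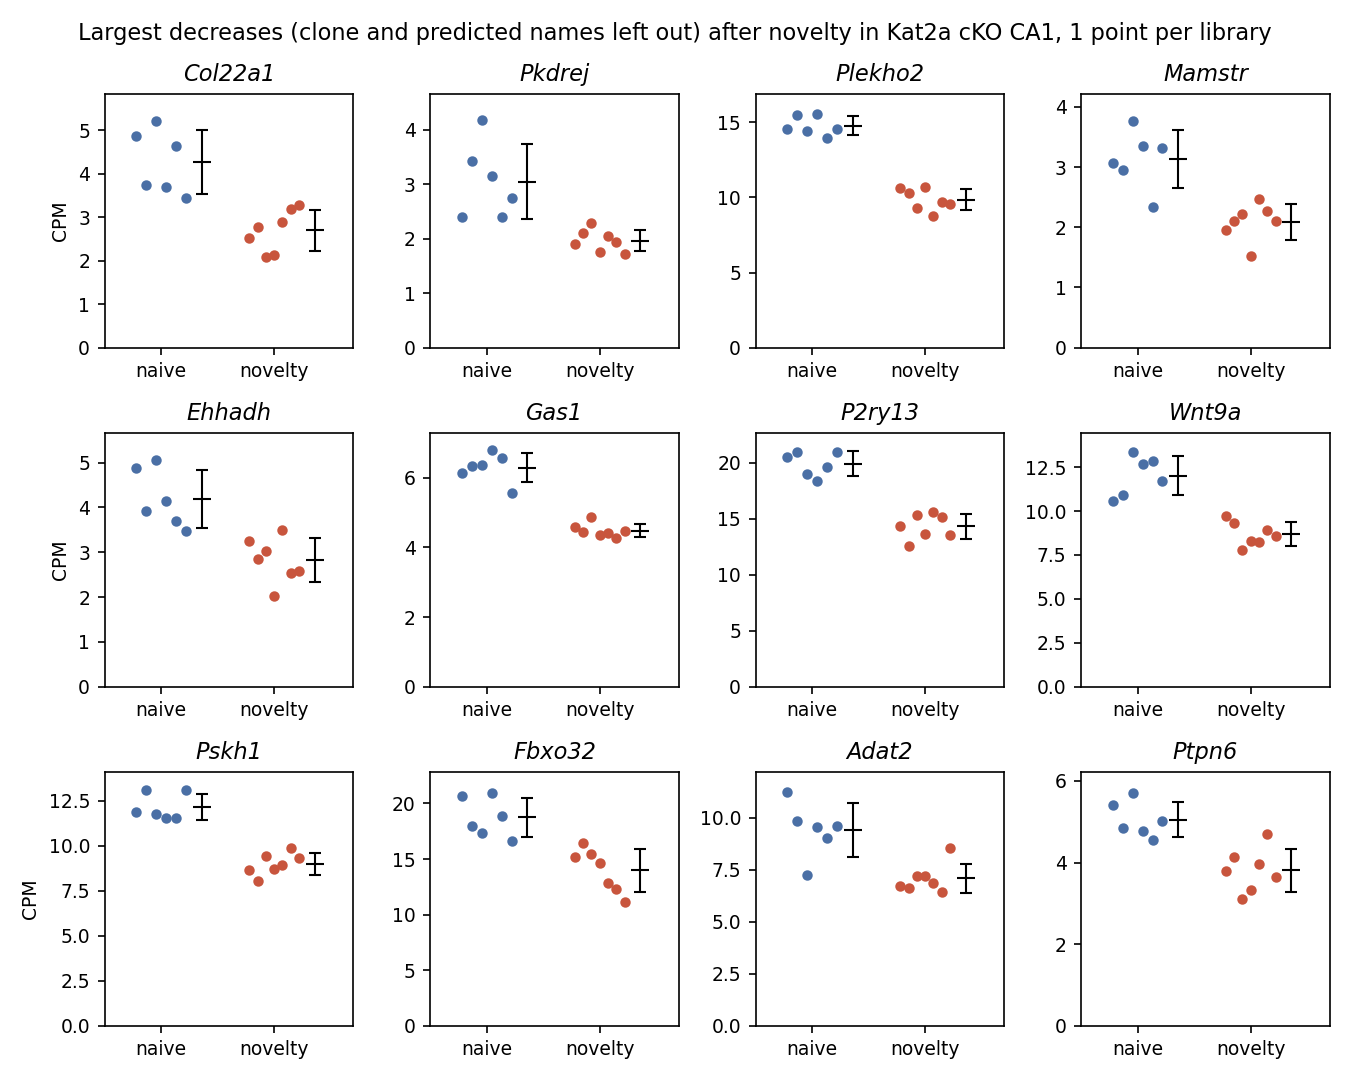
Level in CPM (vertical axis from 0) of the 12 largest decreases, clone and predicted-gene names left out, in each of the 6 naive (blue) and 7 novelty-exposed (red) cKO libraries. Black marks give the mean and SD of a group. Plekho2 shows a wide gap, with no naive library below 14.0 CPM and no exposed one above 10.7 CPM.

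Markers of cell types passed about as often as all genes, with 3 of 125 tested (2.4%) against 2.41%. Of the 13 marker lists, that of CA1 pyramidal neurons included, 3 held a gene that passed: P2ry13, the gap junction gene Gjb6 among 10 astrocyte markers (log2 0.37, adjusted p = 0.00866) and the transcription factor gene Dlx1 among 11 interneuron markers (log2 0.21, adjusted p = 0.0331, but 0.0964 without naive library 2). The summed astrocyte level was 5340 to 5563 CPM in naive and 4752 to 5913 CPM in exposed libraries. Interneuron markers summed to 1141 to 1271 and 1156 to 1399 CPM. Oligodendrocyte markers had the widest range in CPM, from 4330 to 5510 CPM in naive and from 3345 to 6386 CPM in exposed libraries. All 5 blood cell markers that could be tested, of 9 listed, had a value below 0 (median log2 -0.41), with sums of 21.2 to 55.8 CPM in naive and 16.8 to 42.3 CPM in exposed libraries, and none passed. The part of these cells in the results above was not tested.

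The exposed libraries were not alike in the size of the response. Across the 12 largest increases as defined above, library 6 was the highest of the 7 exposed libraries for 10 genes and library 4 for the other 2. Library 3 was the lowest for 8. The median rise over these 12 genes above the naive mean, on the log2 scale, was 2.32 in library 6 and 2.19 in library 4, and 1.10 in library 3 and 1.12 in library 5. Libraries 1, 2 and 7 lay between, at 1.64, 1.40 and 1.54. Assigned reads were 18.3 M in library 6 and 21.1 M in library 4, and 15.8 M in library 3 and 21.2 M in library 5. This order is a description, since the genes were chosen with these libraries.

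The genes with the largest increases had short spans. Among protein-coding genes, those that rose more than 2-fold had a median span of 7.36 kb from first to last base (GENCODE M21), and 60.9% of these 23 genes were under 10 kb. The 55 genes that rose more than 1.5-fold had a median of 11.56 kb, 43.6% under 10 kb and a median of 5 exons. All 14420 tested genes with a span had a median of 25.25 kb, 23.7% under 10 kb and 9 exons. The 254 genes that rose by up to 1.5-fold were on the long side, with a median of 35.18 kb and 11.02% under 10 kb. Those that fell had a median of 20.21 kb, with 30.0% under 10 kb. These are descriptions without a test.

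**Figure D4:**
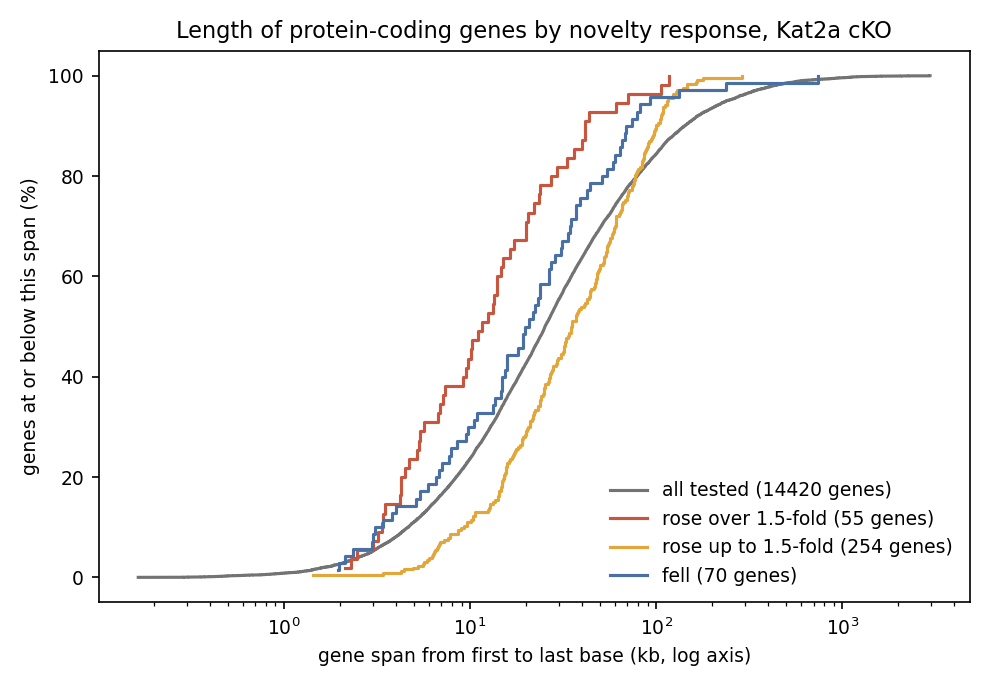
Cumulative share of protein-coding genes (vertical axis, %) at or below a gene span (horizontal log axis, kb) for all tested genes (grey), genes that rose more than 1.5-fold (red), genes that rose by up to 1.5-fold (yellow) and genes that fell (blue). The red curve lies to the left, with a median of 11.56 kb against 25.25 kb for all genes.

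Control mice were compared to ask whether the response differed between the genotypes. Only cKO mice carry Cre, so effects of Cre and of the loss of Kat2a cannot be told apart. The same contrast in controls, Kat2afl/fl without Cre, uses other naive libraries, so the 2 contrasts share none. Of the 314 genes that rose in cKO, 310 had a value above 0 in controls, and of the 79 that fell, 73 had a value below 0. The median log2 fold change of the 314 was 0.30 in cKO and 0.23 in controls, and that of the 79 was -0.31 and -0.21. The genes were chosen by their change in cKO, a choice that favours large cKO values, so these medians are no test of a difference.

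The difference between the genotypes was tested as an interaction over all 24 libraries. No gene of 16744 passed with edgeR, and none passed with DESeq2 or limma-voom. The recovery of such differences was not simulated, so this does not show that the responses were equal. At an unadjusted p below 0.05 there were 688 genes (4.11%) with edgeR, 792 with DESeq2 and 740 with limma-voom. Among the 393 genes that passed in cKO, 49 (12.5%) had an unadjusted interaction p below 0.05. These genes were chosen by their cKO response, which also enters the interaction, so this share is no test of a difference.

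The 5 genes with the smallest interaction p among those 393 are given as values, since none passed. Pla2g7, which encodes a platelet-activating factor acetylhydrolase, was at a mean of 167 ± 9.22 CPM (SD, n = 6) in naive and 148 ± 8.33 CPM (n = 7) in exposed cKO, and at 165 ± 15.96 (n = 6) and 183 ± 14.2 CPM (n = 5) in controls. Its log2 fold changes were -0.18 in cKO and 0.16 in controls (edgeR interaction -0.34 ± 0.08, adjusted p = 1.0). Lmbr1l rose by 0.46 in cKO and had -0.07 in controls, and the imprinted gene Mest rose by 0.40 and had 0.15. Aimp1, a scaffold gene of tRNA synthetases, had -0.16 and 0.07. Pla2g7 and Aimp1 passed in cKO in 3 and 9 of the 13 fits without 1 library, with adjusted p-values of up to 0.0917 without naive library 6 and 0.0724 without naive library 2.

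Alk, a receptor tyrosine kinase gene, had -0.29 in cKO and 0.06 in controls, and its fall passed in 1 of 13 fits without 1 library, with an adjusted p of 0.13 without naive library 2. Fam150b, which encodes a ligand of Alk and is named after its values were seen, rose from 0.968, 1.06 and 1.49 CPM to 2.03, 2.45 and 3.03 CPM in cKO (log2 1.12, adjusted p = 0.000407) and had 0.76 in controls. Among the rapid-response genes, Fosl2 had 1.24 in cKO and 0.74 in controls (edgeR interaction 0.49 ± 0.17, unadjusted p = 0.00992). Homer1 had 1.26 and 1.06 (interaction 0.20 ± 0.09, unadjusted p = 0.0389). Fos had 3.36 and 3.27, Egr1 1.83 and 1.76, and Egr2 4.57 and 4.21. Npas4 had 0.68 in cKO, where it did not pass, and -0.52 in controls (interaction 1.20 ± 0.55, unadjusted p = 0.0418).

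**Figure D5:**
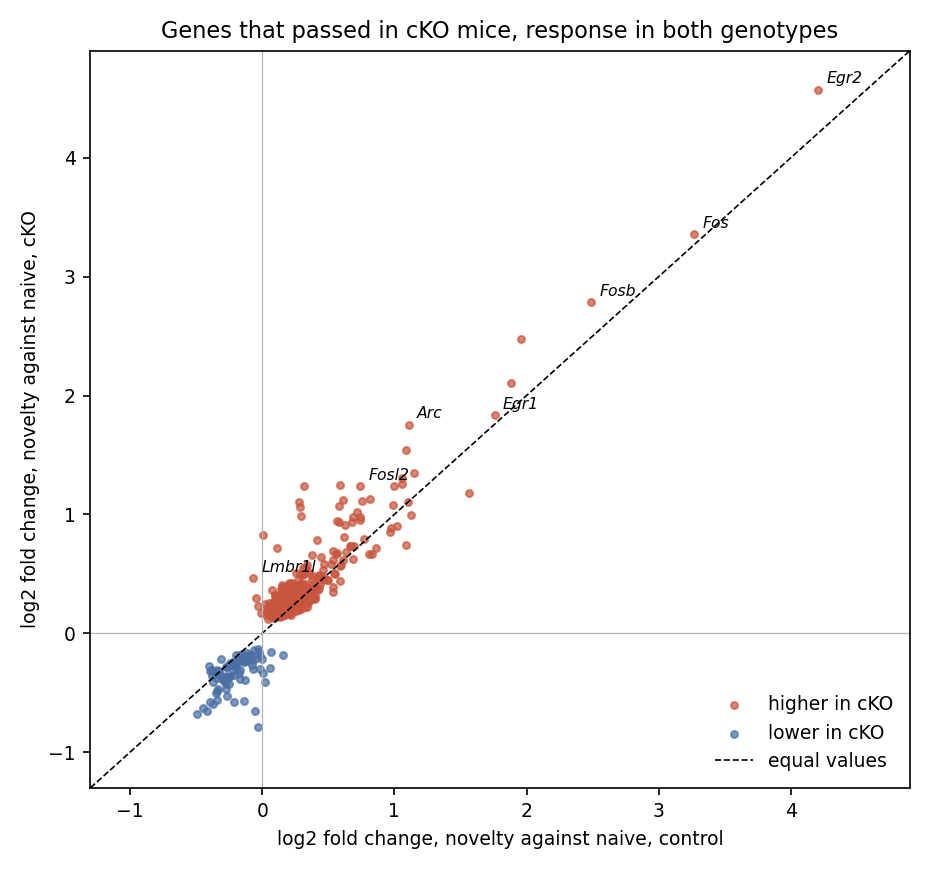
Log2 fold change, novelty against naive, in control (horizontal axis) and cKO (vertical axis) for the 393 genes that were higher (red) or lower (blue) in cKO. The dashed line marks equal values. Most points lie in the upper right or lower left, with Egr2, Fos and Fosb near the line. The genes were chosen by their cKO value, so their place above or below the line is no test of a difference.

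The authors' deposited table for the same contrast, made with DESeq2, lists 16228 genes and calls 715 of them at the same threshold, 548 higher and 167 lower. All 393 genes that passed here are among them, where they make up 55.0% of the calls.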

How the data were processed

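The authors deposited raw read counts per gene for each library, per the file headers, and a table of DESeq2 log2 fold changes, p-values and mean normalised counts (a signal, the base mean) for each pair of groups, per the series' design text. The build GRCm38.p2 and the tools DESeq2, HTSeq and STAR 2.3.0 are named, per the submitters' processing notes, with no roles stated. Per the labels' protocols the TruSeq kit does not mark strand, so antisense and overlapping genes cannot be told apart, and reads without a unique position (14.82 to 16.17% in cKO libraries) are not counted. The annotation release is not given in the sources used here.

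Here, 5 summary entries were removed, which left 38355 genes (reads without a gene made up 7.58 to 10.36% and ambiguous reads 1.08 to 1.18% in cKO libraries). The 13 cKO libraries, with 13.02 to 24.5 M (mega) assigned reads, were tested with the quasi-likelihood test of edgeR 4.0.16 in R 4.3.3 (TMM, filterByExpr with a minimum count of 10, robust fit) and Benjamini-Hochberg adjustment. The interaction was fitted over 24 libraries. Levels are CPM after TMM over 24 libraries, and errors of log2 fold changes are standard errors. In data simulated for this comparison over 16232 genes, 91 of 100 changes of log2 0.5 and 96 of 100 of log2 1 were recovered, with 12 false calls. The changes were put only into genes with a mean count above 50, and counts were drawn independently between genes and libraries. Smaller changes, such as the median of 0.30 among the increases, were not simulated, so their recovery is not known.

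The comparison, the 28 gene lists and the 13 marker lists were chosen with earlier results of these data known, and the pattern for monoamine and acetylcholine receptors was corrected after the counts were seen, because it had matched protease genes. A gene that passed is left out of its list and not reported here. Lists are described by counts and medians without a test. Named are Kat2a, 16 common activity genes, the 12 largest increases and 12 largest decreases among genes that passed with a mean count of at least 50 and 1 sign in all 13 fits without 1 library (clone and predicted-gene names left out), up to 4 members of each list with a gene that passed, the 5 genes with the smallest interaction p and the 5 most variable among exposed libraries (Fos, Junb, Egr4, Arc and Tnfrsf25). Symbols and gene positions come from the authors' deposited tables, and spans from GENCODE M21. DESeq2 1.42.0, limma-voom (limma 3.58.1), other scalings and filters, a replicate block and each library left out were the alternatives.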

Additional observations from a re-analysis of the deposited data

Results flagged for a closer look

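In 10 of the 246 groups of named genes examined (123 genes in 2 cKO groups), 1 library stood apart from the others by Dixon's criterion at the 95% level, where chance gives about 12.3. Among naive cKO libraries, Npas4 was high in library 3 (10.8 CPM) and Nfkbiz in library 1 (9.19 CPM), while Creb1 was low in library 6 (60.9 CPM) and Tsc22d3 in library 1 (44.2 CPM). Idi1, an isomerase gene of cholesterol synthesis, was low in naive library 5 (7.39 CPM). Among exposed cKO libraries, Crem and Hspa5 were high in library 6 (25.7 and 308 CPM) and Adat2 in library 7 (8.55 CPM). Yeats2 was low in exposed library 3 (39.9 CPM) and Hes6 in exposed library 2 (9.02 CPM).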

How the results depend on the processing

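The 393 genes that passed (314 higher, 79 lower) became 639 (503 and 136) with DESeq2, 207 (180 and 27) with the replicate number as a block, 15 (12 and 3) in libraries numbered 1 to 3 alone and 70 (63 and 7) in those numbered 4 and above. Fewer libraries enter the last 2 fits. The fit over all 24 libraries gave 123 lower genes. Leaving out 1 library gave 238 to 452 genes, 207 to 374 higher and 31 to 79 lower. Without the filter on low counts 299 passed, and the other settings (DESeq2 size factors, upper quartile, a mean count of 50, limma-voom, a term for numbers 1 to 3 against 4 and above) gave 358 to 414. The cause of these differences was not tested. Of 77 named genes that passed, 62 passed in every fit without 1 library, 77 with DESeq2, 75 with limma-voom, 74 with upper-quartile scaling and 59 with the block, and no direction reversed in any setting. Deviations of same-numbered libraries correlated at -0.14 to 0.26, and those of differently numbered ones at -0.374 to 0.333. The labels do not say that a number marks a shared animal, litter or day, and these values cannot decide it. The interaction gave no gene in any setting. Kat2a after novelty was 95.2 to 98.9% of naive when 1 library was left out and 97.2% without normalization factors. Counting error is largest for genes at few reads, such as Maff, which was below 1 CPM in naive libraries.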
